A study of Homo sapiens with 8 samples.

Results

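Cyclins and the cyclin-dependent kinases (CDKs) that they switch on carry a cell through division. The 10 genes described here are the D-type cyclins CCND1, CCND2 and CCND3, the E-type cyclins CCNE1 and CCNE2, the A-type cyclin CCNA2, the B-type cyclins CCNB1 and CCNB2, and the kinases CDK1 and CDK2. They were taken by name, with earlier results of these data known, from the 20296 genes that could be matched to a probe on the arrays. All 10 were matched. Of these, 8 were well above background on all 8 arrays. CCNE2 was so on 7 arrays and CCND2 on 3.

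As background, D-type cyclins answer to growth signals and, with CDK4 or CDK6, begin the phosphorylation of the retinoblastoma protein RB in G1 phase. That releases E2F factors, whose targets include the E-type cyclins, and cyclin E with CDK2 takes the cell into S phase. Cyclin A2 works with CDK2 in S phase and with CDK1 in G2 phase, and cyclin B with CDK1 starts mitosis. After DNA damage p53 raises the CDK inhibitor p21, encoded by CDKN1A, and in cells with low CDK activity RB and the DREAM complex hold down genes of S phase and mitosis.

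RNA came from MCF10A, a non-tumorigenic human breast epithelial cell line, either with wild-type p53 (p53+/+) or without p53 (p53-/-). Each genotype was measured untreated, called 0 h, and at 12, 24 and 48 h after 2 h with 0.5 µg/ml doxorubicin, also called adriamycin, a drug that breaks DNA. The methods of the study name a higher dose than the sample labels, whose dose is given here, and whether the p53-/- line is a clone is not given in the sources used here. There was 1 single-colour array for each genotype and hour, 8 in all on 1 slide, so no difference between 2 arrays has a replicate error or a test. The p53-/- and p53+/+ arrays lay in different columns of that slide, so column and genotype cannot be told apart.

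Levels are log2 ratios of the background-corrected signal to the 75th percentile of signals on the same array. That percentile was 661 to 818 on the treated p53+/+ arrays and 1118 to 1199 on the treated p53-/- arrays, so the scaling raised the former relative to the latter. Between 49.8 and 62.9% of the probes were well above background on an array. The technical standard error (SE) given below comes from repeated spots of 1 array and covers neither cultures nor labelling reactions. On the p53+/+ 48 h array 0 of 10 spike-in probes were above background, against at least the same 6 on each of the other 7 arrays, and each value at 48 h carries this fact.

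The array labelled p53+/+ 0 h stood with the p53-/- arrays. The epithelial adhesion gene CDH1 was at -3.55, -3.30, -2.19 and -0.94 at 0, 12, 24 and 48 h in p53-/- cells, at -3.13 on the array labelled p53+/+ 0 h and at 1.42, 2.00 and 2.10 on the treated p53+/+ arrays. EPCAM, another epithelial adhesion gene, showed the same split, with -3.69 to -0.71 in p53-/- cells, -3.14 on the array labelled p53+/+ 0 h and 1.15 to 1.54 on the treated p53+/+ arrays. Over all genes, 3.80% of those tested lay at least 2-fold apart between that array and the p53-/- 12 h array, against 8.87% for p53-/- 0 h and 24.2% for p53+/+ 12 h. The share was 12.8 and 20.9% for p53-/- 24 and 48 h, and 31.0 and 30.4% for p53+/+ 24 and 48 h. Over all genes the array was thus closest to the early p53-/- arrays. Differences between treated p53+/+ and treated p53-/- arrays of the same hour, which do not use that array, are therefore the main values below.

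**Figure D1:**
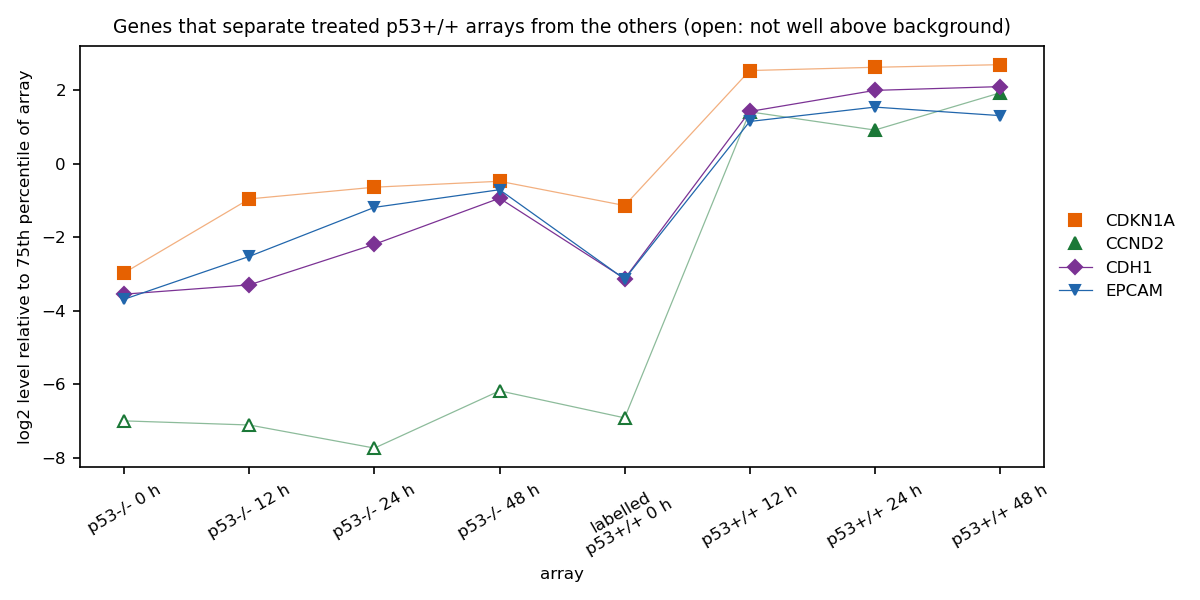
Log2 level relative to the 75th percentile of the array (vertical axis) of CDKN1A, CCND2, CDH1 and EPCAM on the 8 arrays (horizontal axis), with open symbols for values not well above background. For the array labelled p53+/+ 0 h CDH1 (-3.13), EPCAM (-3.14) and CCND2 (-6.92) lie with the p53-/- arrays, not with the treated p53+/+ arrays.

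Promoters are shown for 5 of the genes that differed between genotypes, since they differ in the short words their promoters hold. Each is 250 bases before and 50 after a transcription start, from RefSeq on GRCh38.p14, read 5′ to 3′ along the gene. Capitals mark the CCAAT box (CCAAT) and the cell cycle homology region, or CHR (TTTGAA or TTCGAA), on either strand, so that ATTGG and TTCAAA are matches on the opposite strand.
CCNB1 (chr5:69166900-69167199, + strand): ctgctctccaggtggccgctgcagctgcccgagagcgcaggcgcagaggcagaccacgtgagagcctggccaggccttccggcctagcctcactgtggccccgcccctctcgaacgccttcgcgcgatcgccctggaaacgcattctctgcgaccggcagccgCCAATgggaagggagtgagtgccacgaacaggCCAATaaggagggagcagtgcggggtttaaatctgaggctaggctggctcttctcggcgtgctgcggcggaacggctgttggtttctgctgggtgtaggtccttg
CCNB2 (chr15:59104896-59105195, + strand): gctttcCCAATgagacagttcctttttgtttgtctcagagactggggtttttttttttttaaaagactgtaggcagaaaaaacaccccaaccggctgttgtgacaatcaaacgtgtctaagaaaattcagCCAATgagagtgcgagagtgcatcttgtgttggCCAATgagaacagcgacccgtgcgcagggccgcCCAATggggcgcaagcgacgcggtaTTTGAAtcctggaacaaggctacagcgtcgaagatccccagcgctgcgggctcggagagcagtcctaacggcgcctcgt
CDK1 (chr10:60778228-60778527, + strand): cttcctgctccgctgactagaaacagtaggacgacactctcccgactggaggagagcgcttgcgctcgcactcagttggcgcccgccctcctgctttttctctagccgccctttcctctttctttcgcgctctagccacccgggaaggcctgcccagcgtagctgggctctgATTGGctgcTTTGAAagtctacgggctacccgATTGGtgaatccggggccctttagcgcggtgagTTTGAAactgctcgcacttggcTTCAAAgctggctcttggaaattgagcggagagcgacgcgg
CCNA2 (chr4:121823834-121824133, - strand): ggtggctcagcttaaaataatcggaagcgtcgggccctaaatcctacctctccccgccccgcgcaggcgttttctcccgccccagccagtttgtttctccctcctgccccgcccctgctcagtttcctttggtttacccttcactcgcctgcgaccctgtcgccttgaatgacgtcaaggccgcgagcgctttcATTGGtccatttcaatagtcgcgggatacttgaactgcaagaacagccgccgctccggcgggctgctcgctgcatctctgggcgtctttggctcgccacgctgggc
CCNE1 (chr19:29811741-29812040, + strand): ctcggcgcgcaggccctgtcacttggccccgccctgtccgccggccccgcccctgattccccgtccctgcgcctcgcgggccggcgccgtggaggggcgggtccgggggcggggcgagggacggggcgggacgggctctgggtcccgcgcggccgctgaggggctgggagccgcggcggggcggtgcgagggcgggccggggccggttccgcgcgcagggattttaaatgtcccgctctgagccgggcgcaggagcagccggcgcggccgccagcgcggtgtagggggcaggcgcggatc

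The CCNB1 window held 2 CCAAT boxes that start 87 and 55 bases before the transcription start, and neither of the CHR words searched. CCNB2 held 4 CCAAT boxes, which start 244, 120, 87 and 54 bases before it, and 1 CHR word 29 bases before it. The CDK1 window, the second of 2 in the table, held 3 CHR words, 2 CCAAT boxes and the E2F word TTTCGCGC 128 bases before the start. The first CDK1 window, which overlaps it, held 1 CHR word 161 bases and 1 CCAAT box 150 bases before its own start, and the E2F word after that start. CCNA2 held 1 CCAAT box 56 bases before the start and neither of the CHR words searched. CCNE1 held none of these words but 7 copies of the SP1 word GGGCGG on either strand. CCND3 had 3 windows, with 0, 1 and 1 CCAAT boxes and neither CHR word. Only the 2 CHR words given above were searched, so a window without them is not shown to lack a CHR. Over the first window of each of 27305 genes in the table, 35.7% held a CCAAT box, 16.6% a CHR word, 1.18% an E2F word (TTTGGCGC or TTTCGCGC) and 44.6% the SP1 word. In CCNB2 the last CCAAT box overlaps the SP1 word on the other strand. No promoter was given here for CCND1, CCND2, CCNE2 and CDK2, and such a match describes letters, not binding.

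**Figure D2:**
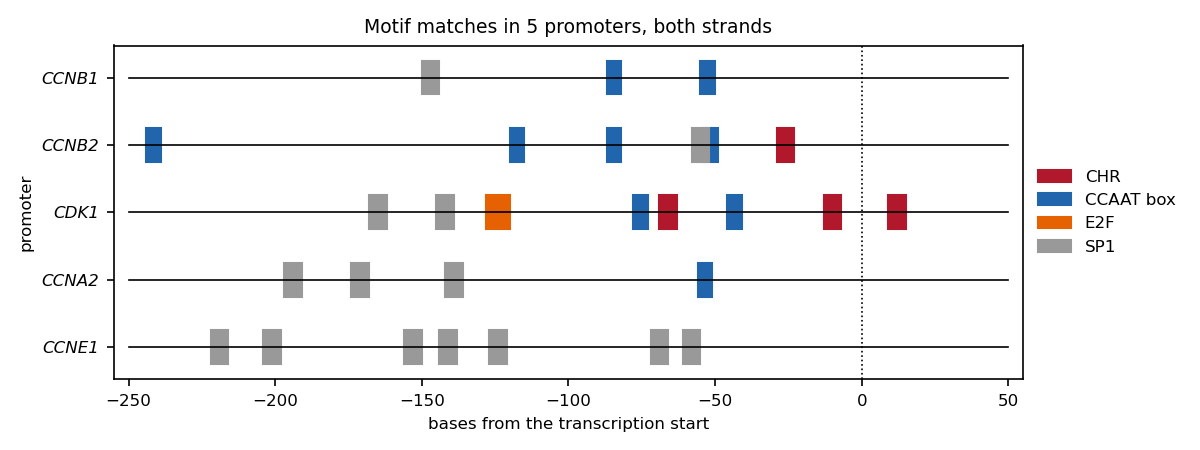
Position of each word in bases from the transcription start (horizontal axis, dotted line at the start) in the 5 promoters, on either strand. CCAAT boxes lie within 120 bases of the start in CCNB1, CCNB2, CDK1 and CCNA2, with 1 more in CCNB2 at 244 bases, and CCNE1 holds SP1 words only.

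The genes of the 3 D-type cyclins did not move together. CCND2 was read in treated p53+/+ cells and was not detected above background elsewhere, while CCND1 and CCND3 were within 2-fold between treated genotypes at every hour, except that CCND3 at 48 h was at -1.28 without scaling. Cyclin D1, encoded by CCND1 and the main D-type cyclin of breast epithelium, was at 1.11, 1.60, 1.25 and 1.12 in p53-/- cells at 0, 12, 24 and 48 h, at 1.67 on the array labelled p53+/+ 0 h, and at 1.43, 1.52 and 1.58 in treated p53+/+ cells. The treated arrays of both genotypes overlapped, and p53+/+ minus p53-/- was -0.17 (technical SE 0.03) at 12 h, 0.27 (0.02) at 24 h and 0.46 (0.03) at 48 h. Without scaling the mean difference over the treated hours turned to -0.41. Scaled on spike-in probes, which left out the p53+/+ 48 h array, the difference between the means of the remaining treated arrays was -0.50. Cyclin D3, encoded by CCND3, was at 2.06, 2.64, 2.43 and 2.35 in p53-/- cells, 2.38 on the array labelled p53+/+ 0 h, then 2.24, 2.25 and 1.93 in treated p53+/+ cells. Its differences were -0.40, -0.18 and -0.42 (SE 0.06 each), and its middle 5 levels in order, from p53+/+ 12 h to p53-/- 24 h, each lay within 2 technical SE of the next. CCND3 passed limma's test over the treated arrays without scaling and with spike-in scaling, and not with the main scaling.

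CCND2, which encodes cyclin D2, was at -7.00, -7.11, -7.74 and -6.18 in p53-/- cells and -6.92 on the array labelled p53+/+ 0 h, none above background. In treated p53+/+ cells it was at 1.42, 0.92 and 1.93, so the groups were fully apart. Only a bound can be given for the difference, with the lowest level measured above background standing for the dim array. CCND2 was at least 123-fold higher in p53+/+ than in p53-/- cells at 12 h, at least 90.1-fold at 24 h and at least 198-fold at 48 h. Against the p53-/- 0 h array it was at least 101-, 71.6- and 144-fold higher. Within treated p53+/+ cells it was 2.02-fold higher at 48 than at 24 h. Since CCND2 followed the same split as CDH1 and EPCAM on the array labelled p53+/+ 0 h, whether its level belongs to the drug or to the line cannot be told apart.

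The E-type cyclins were higher after doxorubicin than on the 1 untreated array of p53-/- cells. The array labelled p53+/+ 0 h, also untreated by its label, was at 3.83 for CCNE1 and 1.17 for CCNE2. These levels were nearer to the treated p53-/- levels than to p53-/- 0 h, so whether the rise belongs to the drug was not tested. Both CCNE1 and CCNE2 in p53-/- cells were at least 2-fold above 0 h at all 3 hours, and they were lower in treated p53+/+ than in treated p53-/- cells. CCNE1, whose product cyclin E1 activates CDK2 at the start of S phase, was at 1.80 in p53-/- cells at 0 h and at 4.09, 3.82 and 3.18 after doxorubicin. It was at 3.83 on the array labelled p53+/+ 0 h and at 1.77, 0.65 and 0.61 in treated p53+/+ cells. All treated p53+/+ levels lay below all treated p53-/- levels. Relative to 0 h, p53-/- cells were 4.88-fold higher at 12 h, 4.05-fold at 24 h and 2.61-fold at 48 h (technical SE of the log2 change 0.06). In p53+/+ cells CCNE1 was 4.97-, 9.01- and 5.97-fold lower than in p53-/- cells (log2 -2.31, -3.17 and -2.58, technical SE 0.06 to 0.07). In p53+/+ cells it was 2.18-fold lower at 24 than at 12 h, and its 24 and 48 h levels there lay within 2 technical SE.

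CCNE2, the gene of cyclin E2, which also pairs with CDK2, was at -0.39, 1.74, 1.67 and 1.37 in p53-/- cells, 1.17 on the array labelled p53+/+ 0 h, then -1.11, -2.89 and -5.61 in treated p53+/+ cells, the last not above background. It was 4.36-, 4.18- and 3.38-fold above 0 h in p53-/- cells. In p53+/+ cells it was 7.19-fold lower than in p53-/- cells at 12 h, 23.7-fold at 24 h and at least 63.6-fold at 48 h. A second CCNE2 probe of 1 spot read -3.14, -1.13, -0.80 and -1.20 in p53-/- cells and -3.37, -4.83 and -6.65 in treated p53+/+ cells, the last 2 not above background, with the same order of genotypes.

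CDK2, the kinase that cyclins E and A activate, differed by less between treated genotypes at each hour than CCNE1, CCNE2 and CCNA2 did. It was at -1.82, -1.34, -1.32 and -1.50 in p53-/- cells, -1.56 on the array labelled p53+/+ 0 h, then -2.70, -2.95 and -3.91 in treated p53+/+ cells, all above background. No hour was 2-fold from 0 h in p53-/- cells. All treated p53+/+ levels lay below every other level, and CDK2 was 2.57-, 3.09- and 5.32-fold lower than in p53-/- cells at 12, 24 and 48 h (technical SE of the log2 difference 0.05, 0.03 and 0.09). With another background correction (normexp) the difference at 12 h was -0.92, short of 2-fold.

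**Figure D3:**
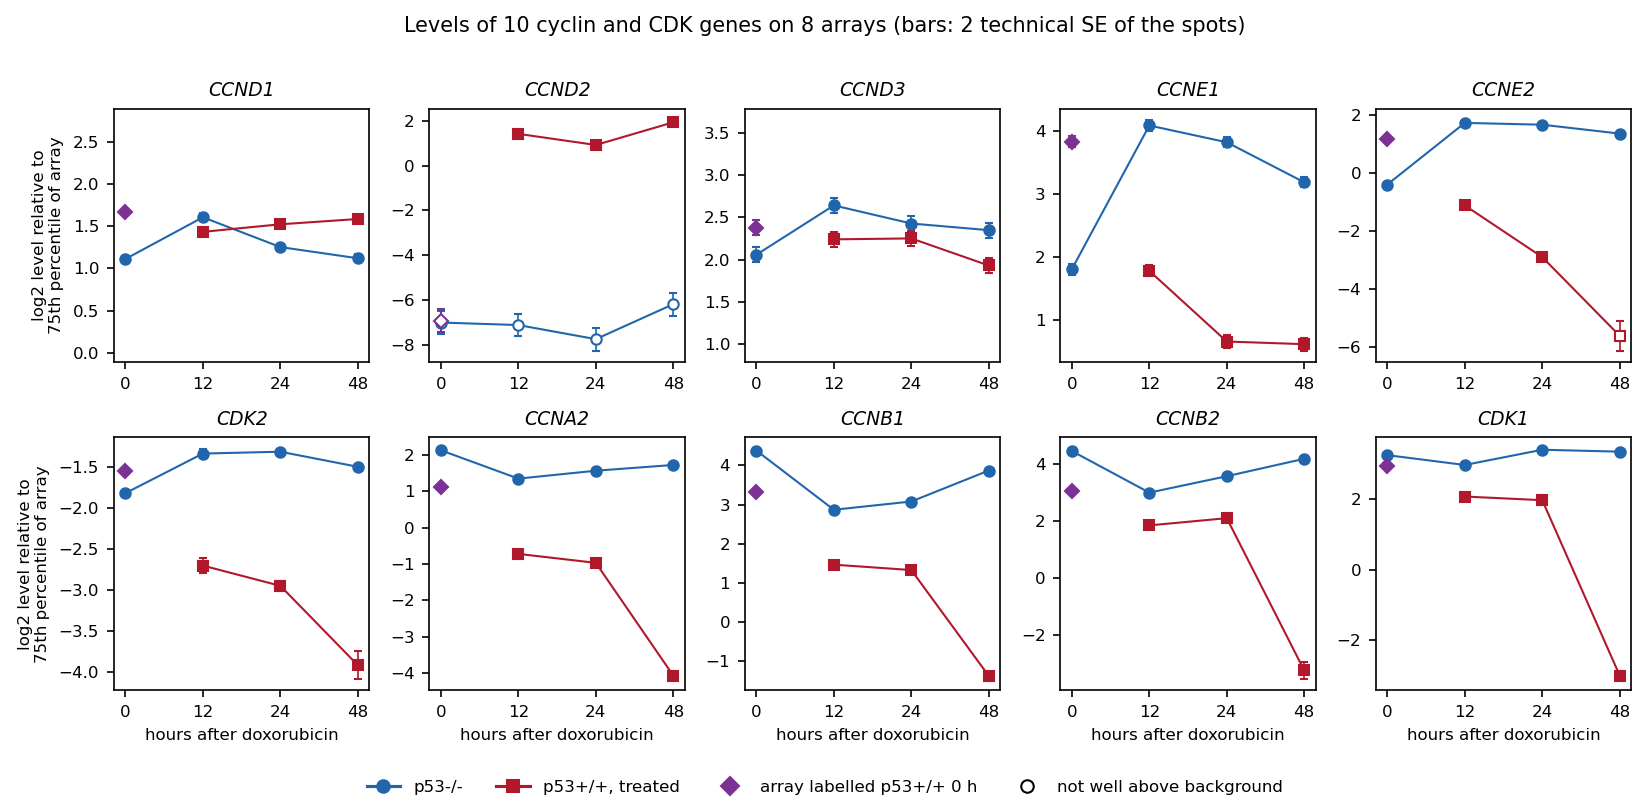
Log2 level relative to the 75th percentile of the array (vertical axes, which differ between panels) of the 10 genes at 0, 12, 24 and 48 h after doxorubicin (horizontal axis, hours evenly spaced). Bars are 2 technical SE and open symbols are values not well above background. CCNE1 and CCNE2 are higher at each treated hour than at 0 h in p53-/- cells, and CCNA2, CCNB1, CCNB2 and CDK1 are lowest at 48 h in p53+/+ cells, between -1.37 and -4.08.

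The genes of S phase and mitosis were lower in treated p53+/+ cells than in treated p53-/- cells, by 1.86- to 5.81-fold at 12 and 24 h and by 37.8- to 174-fold at 48 h. CCNA2, which encodes cyclin A2, was at 2.13, 1.35, 1.57 and 1.73 in p53-/- cells, 1.12 on the array labelled p53+/+ 0 h, then -0.72, -0.97 and -4.08 in treated p53+/+ cells. Every treated p53+/+ level lay below every other level, and every neighbour in the order of the 8 levels differed by more than 2 technical SE. CCNA2 was 4.21-, 5.81- and 55.8-fold lower in p53+/+ than in p53-/- cells at 12, 24 and 48 h (log2 -2.07, -2.54 and -5.80, technical SE 0.03, 0.03 and 0.05).

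CCNB1, the gene of cyclin B1, which with CDK1 drives entry into mitosis, was at 4.38, 2.87, 3.08 and 3.87 in p53-/- cells, 3.33 on the array labelled p53+/+ 0 h, then 1.47, 1.33 and -1.37 in treated p53+/+ cells. Its p53-/- levels were below 0 h at all 3 hours, by 2.85-, 2.46- and 1.42-fold, with the smallest difference at 48 h. With p53 it was 2.64-, 3.36- and 37.8-fold lower than in p53-/- cells. A second CCNB1 probe of 1 spot read 2.35, 0.68, 1.36 and 2.62 in p53-/- cells and -0.70, -0.19 and -2.06 in treated p53+/+ cells. It gave the same order of genotypes, but its p53-/- level at 48 h was above that at 0 h.

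CCNB2, which encodes cyclin B2, was at 4.46, 3.00, 3.58 and 4.19 in p53-/- cells, 3.06 on the array labelled p53+/+ 0 h, then 1.85, 2.10 and -3.25 in treated p53+/+ cells. The p53-/- level was 2.75-fold below 0 h at 12 h and 1.85- and 1.21-fold below 0 h at 24 and 48 h. In p53+/+ cells it was 2.22-, 2.78- and 174-fold lower than in p53-/- cells, with a technical SE of 0.15 at 48 h. CDK1, the kinase of mitosis, was at 3.24, 2.96, 3.39 and 3.34 in p53-/- cells, where no hour was 2-fold from 0 h. It was at 2.94 on the array labelled p53+/+ 0 h and at 2.07, 1.97 and -2.99 in treated p53+/+ cells, 1.86-, 2.69- and 80.6-fold lower than in p53-/- cells. At 12 h the difference of -0.89 missed the 2-fold size, which it passed under median scaling (-1.16), without scaling (-1.34) and under spike-in scaling (-1.40).

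These 4 genes also differed between 24 and 48 h in p53+/+ cells. CCNA2, CCNB1, CCNB2 and CDK1 were 8.61-, 6.50-, 40.9- and 31.1-fold lower at 48 than at 24 h, and CCNE2 at least 3.32-fold, so 5 of 10 genes were at least 2-fold lower, where 6.25% of all genes tested were. CCNE1, CDK2, CCND1 and CCND3 were within 2-fold, at 1.03, 1.95, 1.04 and 1.25, and CCND2 was higher (4.94% of all genes). From 12 to 24 h only CCNE1 and CCNE2 were at least 2-fold lower among the 10 (3.33% of all genes), by 2.18- and 3.44-fold. In p53-/- cells 0 of the 9 genes tested were 2-fold apart between 12 and 24 h (5.43% of all genes higher and 0.989% lower) or between 24 and 48 h (5.93 and 1.11%). By its second probe, however, CCNB1 was 2.41-fold higher at 48 than at 24 h in p53-/- cells. Doxorubicin-treated p53+/+ cells at 48 h rest on the 1 array without spike-in signal.

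**Figure D4:**
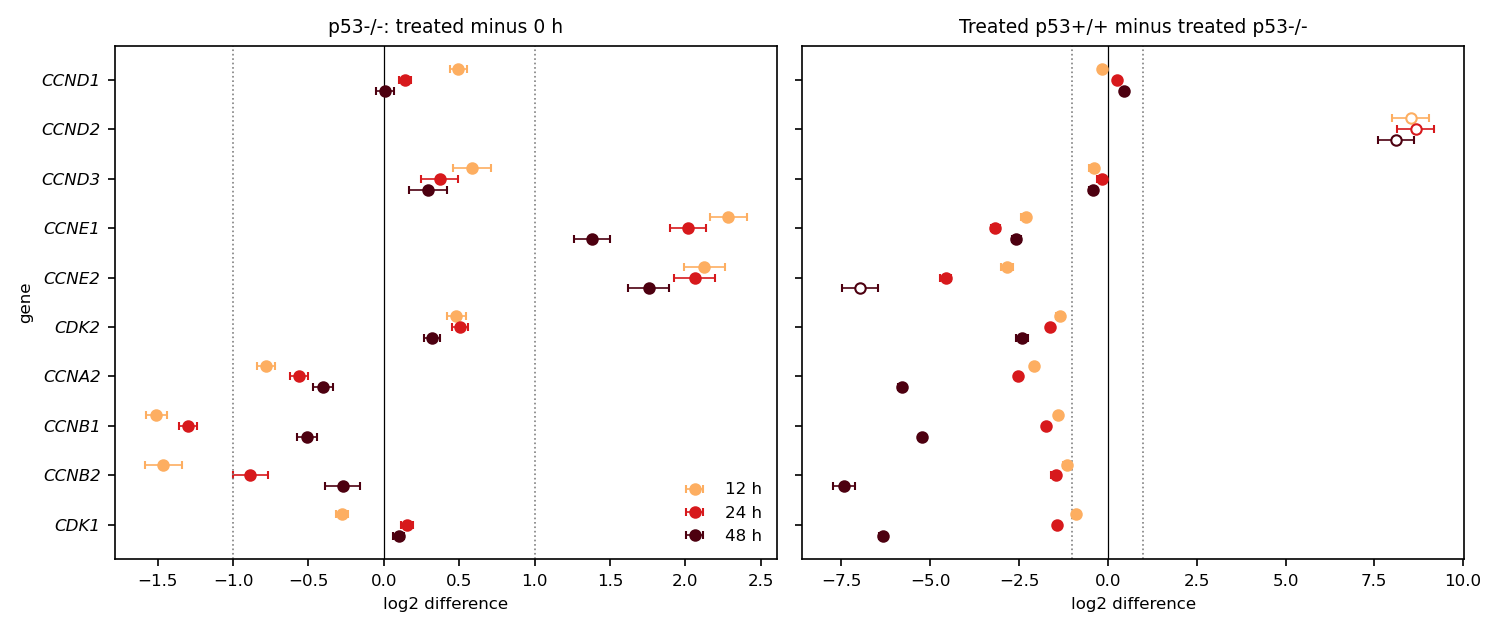
Log2 difference (horizontal axes) for each gene (vertical axis) at 12, 24 and 48 h, on the left for p53-/- cells against 0 h and on the right for treated p53+/+ against treated p53-/- cells. Bars are 2 technical SE, dotted lines mark 2-fold, open symbols have 1 array not well above background, and CCND2 is left out on the left since it was above background on neither array. CCNE1 and CCNE2 exceed 2-fold upward on the left, and at 48 h CCNA2, CCNB1, CCNB2 and CDK1 lie between -5.24 and -7.44 on the right.

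Counted together, 6 of 10 genes at 12 h and 7 of 10 at 24 and at 48 h were at least 2-fold lower in treated p53+/+ than in treated p53-/- cells, where 10.2, 14.6 and 15.8% of all genes tested were. CCND2 was the 1 gene that was higher at each hour, against 12.4, 12.7 and 15.6% of all genes. The median difference of the 10 genes was -1.26, -1.55 and -3.91, and that of all genes tested was 0.05, -0.04 and 0.09. CCNA2, CCNB1, CCNB2, CCNE1, CCNE2 and CDK2 were lower at all 3 hours (6.56% of all genes), as they were without the 48 h arrays, and CCND2 was higher at all 3 (7.18%). Without scaling 14.7% of all genes were lower at all 3 hours and 3.61% higher, so higher genes made up 19.7% of both, against 52.3% with scaling and 42.3% with median scaling, and 7 of the 10 genes were lower.

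A fit with limma over the 6 treated arrays, in which the 3 hours of a genotype stand in for replicates, tested the mean difference of the genotypes against the movement over hours and not against the spread between cultures. Of 28947 probes, 18.0% passed a Benjamini-Hochberg adjusted p of 0.05, 58.8% of them higher in p53+/+ cells (14.5% without scaling, 45.7% with median scaling and 73.3% with normexp). Of the 10 genes 5 passed. CCND2 was higher by limma's fit, with an adjusted p of 0.000322, but it entered the fit only through the treated p53+/+ arrays, where it was high, so that this call sets signal against background. CCNE1 was lower by limma's fit (log2 -2.69, SE 0.40, adjusted p 0.00728, lower at 3 of 3 hours), as were CDK2 (-1.80, SE 0.33, adjusted p 0.0149), CCNE2 (-4.80, SE 1.03, adjusted p 0.0238, with the dim 48 h value) and CCNA2 (-3.47, SE 0.86, adjusted p 0.0368). With hour as a block, which pairs the genotypes at each hour, 4 of the 10 genes passed and CCNA2 lost its call, as it also did without the 12 h arrays. CCNB1 missed with limma's adjusted p of 0.0510 (-2.80, SE 0.77), whereas its second probe passed with 0.0393 (-2.54, SE 0.64), and the first probe passed with median, spike-in or no scaling, with normexp, under both other filters on dim probes and without 48 h. CCNB2 missed with limma's adjusted p of 0.143 (-3.36, SE 1.39) and CDK1 with 0.175 (-2.88, SE 1.31), although each was lower at 3 of 3 hours. Both passed with spike-in scaling, which left out the p53+/+ 48 h array and so changed the arrays as well as the scaling. CCNB2 also passed with normexp, and CDK1 did not. With the 24 h arrays left out, only CCND2 of the 10 passed.

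Measured from the array labelled p53+/+ 0 h instead, 6, 5 and 7 of the 10 genes were at least 2-fold lower in p53+/+ cells at 12, 24 and 48 h, where 11.3, 15.1 and 13.1% of all genes were, and CCND2 was higher at each hour (12.9, 15.8 and 17.3%). At all 3 hours CCNA2, CCNB1, CCNE1, CCNE2 and CDK2 were lower (7.19% of all genes) and CCND2 was higher (9.48%). Measured from the p53-/- 0 h array, 4, 7 and 7 were lower at 12, 24 and 48 h (11.6, 14.6 and 13.0% of all genes) and CCND2 was higher (13.3, 15.5 and 16.9%). At all 3 hours CCNA2, CCNB1, CCNB2 and CDK1 were lower (7.61%) and CCND2 was higher (9.31%). CCNE1 and CCNE2 depended most on this choice. The change of CCNE1 in p53+/+ cells at 12 h was -2.06 from the array labelled p53+/+ 0 h and -0.03 from the p53-/- 0 h array, and that of CCNE2 was -2.28 and -0.72.

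The array labelled p53+/+ 0 h differed from the p53-/- 0 h array in the cyclins themselves. On it CCNE1 and CCNE2 were 4.09- and 2.94-fold higher (3.8% of all genes tested were at least 2-fold higher), and CCNA2, CCNB1 and CCNB2 were 2.01-, 2.06- and 2.64-fold lower (5.07%). Against the p53-/- 12 h array, 0 of the 9 genes tested were 2-fold apart in either direction (2.07% of all genes higher and 1.73% lower), and the differences ran from -0.57 for CCNE2 to 0.47 for CCNB1. Against the p53-/- 24 h array 0 of 9 were 2-fold apart (4.13% of all genes higher and 8.68% lower), and against the p53-/- 48 h array CCNB2 alone was, on the lower side (6.21 and 14.7%). CDKN1A was at -2.97 at 0 h in p53-/- cells, -0.96 at 12 h and -1.14 on the array labelled p53+/+ 0 h. A limma fit of all 8 arrays asked whether the change from 0 h differed between genotypes, and 1.69% of probes and 2 of the 10 genes passed, CCNE1 with an adjusted p of 0.0454 and CCND2 with 0.0164, the latter again as signal in treated p53+/+ cells against background on the other 5 arrays. With any 1 treated hour left out 0 of the 10 passed limma's adjusted test, where 2 to 5 had an unadjusted p under 0.05. Each statement on a change from 0 h in p53+/+ cells rests on this array.

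In p53-/- cells against their own 0 h array, 2 of the 9 genes tested were at least 2-fold higher at each hour, where 4.48, 8.92 and 15.0% of all genes were, and both were E-type cyclins. They were the 2 that were higher at all 3 hours (2.95% of all genes). CCNB1 and CCNB2 were 2-fold lower at 12 h (5.35% of all genes), CCNB1 at 24 h (5.44%) and 0 genes at 48 h (7.46%). Without scaling CCNB1 at 24 h was at -0.92, short of 2-fold, and 6.58% of all genes were higher and 0.82% lower at all 3 hours. Each change from 0 h in p53-/- cells, here and below, rests on the single p53-/- 0 h array.

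Among 48 further genes of cell cycle control on the array, chosen with earlier results of these data known, 24 of 46 tested at 12 h, 25 of 47 at 24 h and 28 of 47 at 48 h were at least 2-fold lower in treated p53+/+ than in treated p53-/- cells, where 10.2, 14.6 and 15.8% of all genes were, and 4, 4 and 2 were higher (12.4, 12.7 and 15.6%). At all 3 hours 6.56% of all genes were lower and 7.18% higher, which is the share to read the groups below against. Their median difference was -1.09, -1.04 and -1.55. CDKN2B was above background on no array. In p53-/- cells against 0 h, 8, 5 and 1 of them were lower (5.35, 5.44 and 7.46% of all genes) and 5, 8 and 6 higher (4.48, 8.92 and 15.0%), so that at 48 h neither share was above that of all genes. Apart from RB1, the genes named below are among the up to 4 of each group with the largest mean log2 change in treated p53+/+ cells. That change was measured from the array labelled p53+/+ 0 h, so the choice of names depends on it.

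Of 8 other cyclin and CDK genes tested at all hours, 2 were lower at all 3 hours. CDK4, the partner of the D-type cyclins, was 3.29-, 3.96- and 2.32-fold lower in p53+/+ than in p53-/- cells. CCNF, the gene of cyclin F, which marks proteins for destruction in G2 phase, was 2.20-fold lower at 12 h and at least 3.82- and 5.22-fold lower at 24 and 48 h. CCNG2, an atypical cyclin, was 4.62-fold higher at 12 h only, and CCNB3 was not above background on either array at 12 h. In the whole group 2 of 8 genes tested at 12 h, 1 of 9 at 24 h and 0 of 9 at 48 h were at least 2-fold higher (12.4, 12.7 and 15.6% of all genes).

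Of the 5 activators and cofactors of CDKs, 3 were lower at all 3 hours. CDC25A, a phosphatase that activates CDK2 and CDK1, was 3.99-, 4.99- and 12.9-fold lower, and it was the 1 of the 5 at least 2-fold higher than at 0 h at all 3 hours in p53-/- cells, by 1.65, 1.34 and 1.25 on the log2 scale. CDC25C, which activates CDK1, was 2.10- and 2.83-fold lower at 12 and 24 h and at least 37.0-fold lower at 48 h. CKS2, a small CDK-binding protein, was 2.32-, 2.26- and 4.18-fold lower. The kinases that inhibit CDK1 were lower as well. PKMYT1 was 2.59-, 2.63- and 124-fold lower, and WEE1 was 2.15- and 2.92-fold lower at 12 and 48 h and less than 2-fold apart at 24 h.

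Of 6 CDK inhibitor genes tested, CDKN1A was the 1 that was higher at all 3 hours, by 11.3-, 9.62- and 9.03-fold, at 2.54, 2.63 and 2.70 in p53+/+ and -0.96, -0.64 and -0.48 in p53-/- cells. Without p53 it was 4.03-, 5.03- and 5.63-fold above 0 h. CDKN1C, the gene of p57, was 3.84-, 14.0- and 31.5-fold lower in p53+/+ cells, and CDKN2C, the gene of the CDK4 and CDK6 inhibitor p18, was 2.40-, 5.96- and 27.5-fold lower.

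Of 11 genes of the RB and E2F group, 4 were lower at all 3 hours, all of them E2F genes. E2F2, an activator of S phase genes, was 16.6- and 43.7-fold lower at 12 and 24 h and at least 273-fold at 48 h. E2F1 was 6.88- and 17.0-fold lower and then at least 44.8-fold. E2F8, an atypical E2F that represses, was 7.98- and 14.3-fold lower and then at least 24.8-fold. Both E2F2 and E2F8 in p53-/- cells were at least 2-fold above 0 h at all 3 hours, E2F2 by 2.14, 2.22 and 2.12 and E2F8 by 1.83, 2.13 and 2.05 on the log2 scale. RB1 itself, named for its role after its values were seen, differed by 0.55, 0.35 and 0.57 between genotypes, less than 2-fold.

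Of 6 genes for the destruction of cyclins, 4 were lower at all 3 hours. UBE2C and CDC20, which serve the anaphase-promoting complex that destroys cyclins A and B, were 4.44- and 7.33-fold lower at 12 h, and at 48 h at least 452- and 185-fold lower. FBXO5, which inhibits that complex, was 8.18-, 14.3- and 49.5-fold lower. FBXW7, which marks cyclin E for destruction, was 6.75-, 9.57- and 10.9-fold higher. Of 8 regulators of mitosis 6 were lower at all 3 hours (6.56% of all genes) and 8 at 48 h (15.8%). The kinase gene PLK1 was 5.09- and 6.36-fold lower at 12 and 24 h and at least 34.6-fold at 48 h, and FOXM1, a factor that transcribes B-type cyclins, was 2.60- and 3.49-fold and then at least 183-fold lower.

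**Figure D5:**
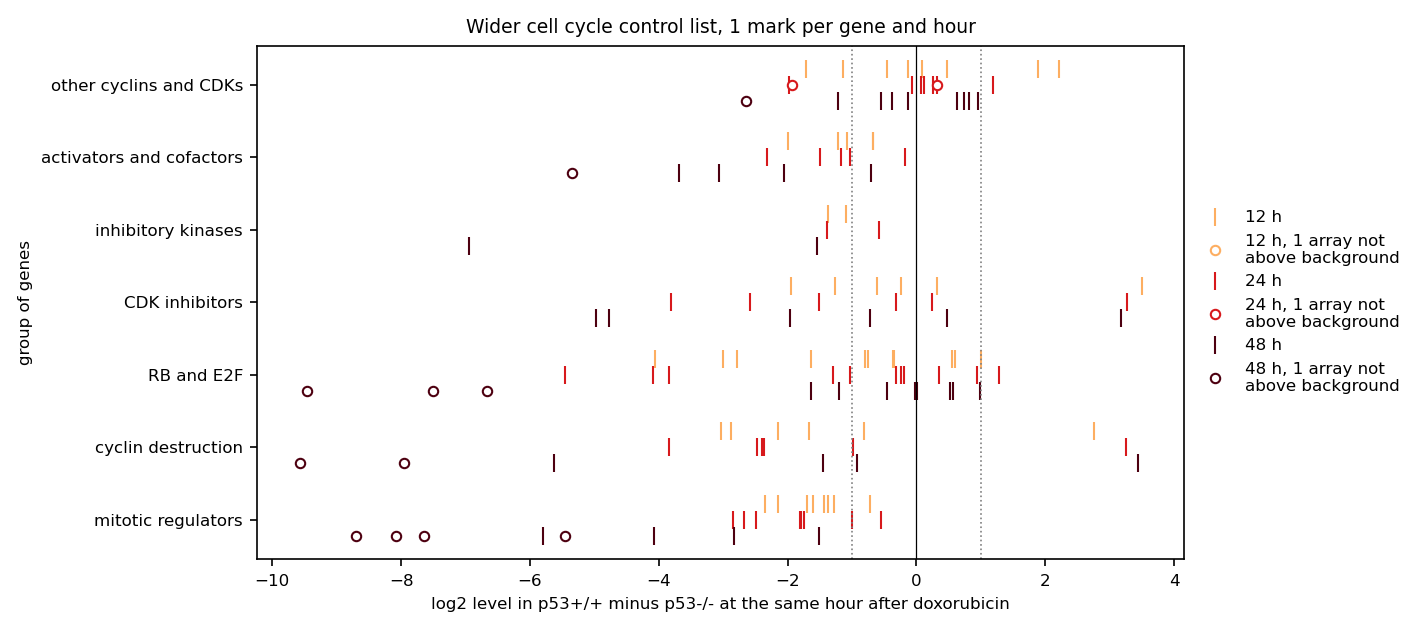
Log2 level in p53+/+ minus p53-/- cells at the same hour (horizontal axis) for the further cell cycle genes by group (vertical axis), 1 mark for each gene and hour, with open circles where 1 of the 2 arrays was not well above background and dotted lines at 2-fold. CDKN1A (3.50, 3.27 and 3.17) and FBXW7 (2.75, 3.26 and 3.44) lie to the right at all 3 hours, while most genes of mitosis lie to the left.

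Over the 8 arrays, the genes most like CCNB1 among 11820 genes above background on all of them were TPX2, INCENP and ECT2, with Pearson's r of 0.991, 0.989 and 0.987. Those most like CCNE2 were DNA2, HAUS1 and TPRKB (0.994, 0.993 and 0.992), and those most like CCND1 were SIRPA, PELI3 and SH3RF1 (0.961, 0.949 and 0.941). Among the members themselves r ran from -0.935 between CCND2 and CDK2 to 0.987 between CCNA2 and CCNB1. It was 0.968 between CCNA2 and CCNB2. The values for CCNE2 include its p53+/+ 48 h reading, which was not above background, and CCND2 was above background on 3 arrays alone. These values describe 8 arrays that share a slide, 2 genotypes and 4 hours.

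The labelled cell type was checked by its markers. Of 7 epithelial markers 6 or 7 were above background on each array, with TP63 so on 3 arrays only. Their summed level was 6.11 to 6.79 on the p53-/- arrays, 6.63 on the array labelled p53+/+ 0 h and 7.72 to 8.12 on the treated p53+/+ arrays. The fibroblast markers COL1A2 and COL3A1 were above background on no array, and COL1A1 on the 4 p53-/- arrays and the array labelled p53+/+ 0 h alone, with the list of 4 at -2.91 to -1.84 in p53-/- and -4.51 to -4.16 in treated p53+/+ cells. PDGFRB, the other fibroblast marker, was above background on 3 arrays. The leukocyte markers CD14 and PTPRC were above background on all 8 arrays, with CD14 at 1.37 to 2.59 in p53-/- and 0.78 to 1.67 in treated p53+/+ cells. Of the 2 endothelial markers CDH5 was above background on all 8 arrays, and PECAM1 was not in treated p53+/+ cells (list at -1.72 to -1.24 against -3.19 to -2.80). The part of these differences between the lines in the values above was not tested, and in such bulk RNA fewer cells of a type and less RNA in each cannot be told apart.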

How the data were processed

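RNA of MCF10A cells was hybridised to 8 single-colour Agilent arrays, 1 for each genotype and hour. The authors deposited scanner files whose processed signal is an intensity, background-subtracted by Agilent Feature Extraction 10.7.3.1, and the series table held the same intensity values. Each level is log2 of that signal minus log2 of the 75th percentile of the array, after outlier-flagged and control spots were left out and spots of a probe were averaged. Of 42405 probes, 64.2% were matched by RefSeq accession to 20296 genes. The array was designed on hg19, so the GRCh38.p14 gene table was used for names only. For each gene the probe with the highest mean level was used.

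A gene was tested in a comparison if it was well above background on at least 1 of the 2 arrays, and at least 2-fold was the size rule. Where 1 array was not above background, a fold is a bound against the lowest signal well above background on that array. Where the dim value itself was higher than that signal, as for CCNF at 24 h, the dim value was used. The technical SE came from the spots of a probe printed 10 times, and otherwise from the spot spread at that level of 999 such probes. limma 3.58.1 in R 4.3.3 was fitted to 28947 probes above background on at least 1 array, with Benjamini-Hochberg adjustment at 0.05 and 4 residual degrees of freedom, and was tested on simulated data. Python 3.11.15, numpy 2.4.6, pandas 2.3.3 and matplotlib 3.10.9 were used for the rest. Alternatives were median, spike-in, quantile or no scaling, normexp (offset 50), a signal floor, the mean of all probes, a 3-fold rule, another baseline, other filters on dim probes, hour as a block and leaving out each hour. Leaving out the 48 h arrays in the size counts was added after the data were seen.

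The 10 genes, the other gene lists and the tests were chosen with earlier results of these data known. The text names all 10 genes, CDKN1A, up to 4 genes for each group of the wider list, and the 3 genes most alike to each of CCNB1, CCNE2 and CCND1. The up to 4 genes had the largest mean log2 change of the treated p53+/+ arrays from the array labelled p53+/+ 0 h. Some values are not reported here. The number of arrays limits the precision.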

Additional observations from a re-analysis of the deposited data

Results flagged for a closer look

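The change after doxorubicin was compared between the genotypes as an interaction in limma's fit of the 8 arrays (p53+/+ change minus p53-/- change, log2). CCND2 (8.35, limma adjusted p 0.0164) and CCNE1 (-4.72, adjusted p 0.0454) passed the test. The CCND2 estimate sets the treated p53+/+ arrays, through which alone the gene entered the fit, against 5 arrays not above background, so it is not a measured size. CCNE2 (-6.35), CDK2 (-2.07), CCND3 (-0.65) and CCND1 (-0.37) had opposite signs in the genotypes at all 3 hours but did not pass, so a difference was not shown, with limma adjusted p of 0.186, 0.181, 0.443 and 0.684. Each of these values uses the array labelled p53+/+ 0 h, which stood with the p53-/- arrays, as the start of the p53+/+ change.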

How the results depend on the processing

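No change of at least 2-fold turned sign under an alternative, and 25 of 619 changes crossed the 2-fold size. With a 3-fold rule 1 gene in place of 2 was higher at all 3 hours in p53-/- cells, and 3 in place of 6 were lower at all 3 hours in treated p53+/+ cells. The share of all genes past 3-fold is not given here, so whether the 10 genes thinned more than all genes cannot be read. Over the treated arrays limma called 5201 probes, against 9393 without scaling, 7814 with spike-in scaling, 9894 with normexp, 12536 without a filter on dim probes and 292 to 2670 with an hour left out. It called 5 of the 10 genes, against 9 with spike-in scaling and 1 to 6 with an hour left out. For the interaction it called 488 probes, against 1296 without scaling, 797 with spike-in scaling, 1251 with normexp, 60 with hour as a block and 0 to 42 with an hour left out (3063 and 5274 probes had an unadjusted p under 0.05 without 24 h and without 48 h, where limma called 0). It called 2 of the 10 genes for the interaction, against 1 with probes above background on all arrays, 1 without a filter, 1 with hour as a block and 0 with any hour left out. The interaction estimate of CCNB2 ran from -3.06 to 0.087 with an hour left out, turning sign without 48 h, and CCND1 over the treated arrays to -0.41 without scaling and -0.50 with spike-in scaling. Higher probes made up 55.7% of interaction calls, against 14.0% without scaling, 23.0% with spike-in scaling and 66.4% with normexp. Without scaling the median of all genes moved to -0.40, -0.52 and -0.77 between treated genotypes at 12, 24 and 48 h. The p53+/+ 48 h array could not be scaled on spike-in probes, so each fit with spike-in scaling left it out. The cause of these shifts was not tested. No replicate block could be fitted, since each genotype and hour had 1 array, but hour as a block pairs the genotypes at each hour: over the treated arrays limma then called 4451 probes and 4 of the 10 genes, with CCNA2 lost.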
